A study of Mus musculus with 36 samples.

Results

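Serum response factor (SRF, encoded by *Srf*) and 9 genes of the actin cytoskeleton that are textbook SRF targets, *Acta1*, *Acta2*, *Actg2*, *Tagln*, *Cnn1*, *Myl9*, *Tpm1*, *Vcl* and *Flna*, were followed through 36 RNA-seq libraries of mouse cells and tumours that carry or lack the macroH2A histones. The 10 genes were taken by name, out of 54115 genes with a transcript in the quantified annotation. All 10 were measured in each of the 4 experiments, and all 10 passed the low-count filter of each experiment except *Cnn1* in CD8 T cells. Double knockout (dKO) mice, which lack functional *H2afy* and *H2afy2* (the genes of macroH2A1 and macroH2A2) from the germ line, were set against wild-type (WT) mice. In the 3 tumour experiments both genotypes also carried the alleles of an inducible melanoma model, among them *Braf* CA and *Tyr-CreERT2*, in which topical 4-hydroxytamoxifen on the dorsal skin switches on mutant BRAF in cells that use the melanocyte *Tyr* promoter. The deletion of the macroH2A genes was not limited to melanocytes. The strains were on a mixed background, mostly 129S with B6 and FVB. Bulk tumours came from 6 dKO mice (1 female, 5 male) and 6 WT mice (4 female, 2 male) at 50 days after induction, in 3 library batches with 2 tumours of each genotype. CD8 T cells (mice of 9 weeks at induction) and cancer-associated fibroblasts (CAFs, mice of 10 weeks at induction, sorted on CD140a, the PDGFRα receptor) came from tumours of 4 dKO and 4 WT mice each, 2 female and 2 male per genotype. Immortalized dermal fibroblasts (iDFs), grown from skin without a tumour, were male and were used in 4 groups of 2 libraries: dKO after 30 min of serum, dKO at 0 min, WT after 30 min and WT at 0 min. The iDFs were held confluent in 0.5% serum for 24 h and then given 10% serum. The sources used here do not say how many iDF lines stand behind the libraries of a genotype. Line and genotype cannot be told apart in the iDFs, and p-values there measure only the spread between these libraries.

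SRF is a transcription factor that binds as a dimer to the CArG box, a short A/T-rich element flanked by CC and GG. It is known to work with 2 kinds of partner. The ternary complex factors (ELK1, ELK3 and ELK4) are phosphorylated by MAP kinases and drive immediate-early genes such as *Fos* and *Egr1*, whereas the myocardin-related factors MRTF-A and MRTF-B (*Mrtfa*, *Mrtfb*) are held in the cytoplasm by monomeric actin and move to the nucleus when actin polymerizes, where they drive genes of the contractile and adhesion machinery. In fibroblasts, serum given after starvation is the classic stimulus for both, and the smooth muscle-type genes among the targets are used to recognize contractile fibroblasts.

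Promoter sequence was searched for the CArG box, the element that SRF binds. Windows that ran 250 bases before to 50 bases after the annotated start site were at hand in RefSeq (build GRCm38.p6) for 8 of the 10 genes, and *Actg2* and *Tagln* were not matched. CArG boxes, searched with a pattern that is its own reverse complement so that 1 search covers both strands, were found in 4 of these 8 windows (*Srf*, *Acta1*, *Myl9* and *Vcl*), against 535 of 32851 promoter windows of the same length (1.63%). Upstream excerpts of the 4 windows, 5′ to 3′ on the strand of the gene with the CArG boxes in capitals, read as follows.
*Srf*, chr17:46556185-46556274, minus strand: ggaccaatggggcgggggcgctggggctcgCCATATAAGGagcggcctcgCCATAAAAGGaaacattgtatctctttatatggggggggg
*Acta1*, chr8:123894809-123894878, minus strand: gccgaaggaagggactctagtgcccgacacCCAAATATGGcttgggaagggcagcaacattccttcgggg
*Myl9*, chr2:156775273-156775342, plus strand: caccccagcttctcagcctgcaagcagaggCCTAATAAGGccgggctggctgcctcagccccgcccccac
*Vcl*, chr14:20929148-20929210, plus strand: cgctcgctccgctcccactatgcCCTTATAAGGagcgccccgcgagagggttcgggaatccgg
The *Srf* promoter held 2 boxes, which started at -82 and -62 from the start site. The single boxes of *Acta1*, *Myl9* and *Vcl* started at -73, -161 and -227. Only exact matches (CC, then A or T letters alone, then GG) were counted, and the windows of *Acta2*, *Cnn1*, *Tpm1* and *Flna* held none. Near matches, such as ccctatatgg and ccttgtttgg in the *Acta2* window, were left out. The search therefore says nothing about binding at near matches or outside the window. In the annotation used for counting (GRCm38), *Srf* lies at chr17:46548329-46556175, *Acta1* at chr8:123891769-123894751, *Acta2* at chr19:34241090-34255590, *Actg2* at chr6:83512905-83536265, *Tagln* at chr9:45929619-45936058, *Cnn1* at chr9:22099216-22109630, *Myl9* at chr2:156775420-156781658, *Tpm1* at chr9:67022590-67049406, *Vcl* at chr14:20929398-21033676 and *Flna* at chrX:74223461-74249820. Each is protein coding.

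Between 17526681 and 85432438 estimated read counts per library fell in genes. Levels within an experiment are given as CPM (counts scaled to the size of the library) after TMM normalization, and a gene was called when the edgeR quasi-likelihood test gave a Benjamini-Hochberg adjusted p under 0.05 over all genes of the experiment and a log2 fold change beyond 0.75 in either direction. Transcripts of *H2afy* were still read in dKO libraries, at 61.2 to 82.4 CPM in dKO against 90.5 to 122 CPM in WT tumours, 61.0 to 65.2 CPM in dKO against 91.2 to 94.3 CPM in WT iDFs, 48.7 to 55.3 CPM in dKO against 51.8 to 60.7 CPM in WT CAFs and 72.1 to 93.9 CPM in dKO against 72.8 to 96.5 CPM in WT CD8 T cells. *H2afy2* ran at 4.69 to 8.41 CPM in dKO against 7.97 to 13.2 CPM in WT tumours, 30.5 to 31.3 CPM in dKO against 45.6 to 51.2 CPM in WT iDFs, 10.7 to 14.4 CPM in dKO against 17.1 to 24.9 CPM in WT CAFs and at most 0.395 CPM in dKO against 0.41 CPM in WT CD8 T cells. The genotypes did not overlap in tumours and iDFs for *H2afy* and in CAFs and iDFs for *H2afy2*, where dKO was lower, and they overlapped elsewhere. The sources used here do not give the deleted part, so these levels are no full check of the labels. Markers of the sorted cell types were as follows: 5 T cell genes summed to 2530 to 2905 CPM in dKO and 2514 to 3871 CPM in WT CD8 libraries and to at most 0.0964 CPM in every CAF and iDF library, and 6 fibroblast genes summed to 97612 to 124690 CPM in dKO CAFs, 80691 to 100244 CPM in WT CAFs, 25701 to 27331 CPM in dKO iDFs and 26999 to 30488 CPM in WT iDFs. The CD8 libraries also held fibroblast RNA in unequal amounts, with a fibroblast marker sum of 88.8 to 2825 CPM in dKO and 2.18 to 1457 CPM in WT libraries, and in dKO replicate 3 it (2825 CPM) was above the T cell sum (2547 CPM). Endothelial markers summed to 129 to 275 CPM in dKO and 153 to 336 CPM in WT CAFs, against 173 to 290.0 CPM in dKO and 158 to 253 CPM in WT tumours. Actin genes have nearly the same coding sequence, so reads of *Acta1*, *Acta2* and *Actg2* can be split wrongly among each other and with *Actb* and *Actg1*.

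Serum raised *Srf* itself and most of its contractile targets within 30 min in iDFs of both genotypes. Of the 10 genes, 7 were called higher at 30 min in dKO iDFs and 7 in WT iDFs (*Srf*, *Acta1*, *Acta2*, *Actg2*, *Tagln*, *Cnn1* and *Tpm1* in each), where 2.14% of all 15047 genes tested were called higher in dKO and 1.54% in WT. None was called lower. The median log2 fold change of the 10 genes was 0.99 in dKO and 1.17 in WT iDFs, and over all genes it was -0.00 in dKO and -0.01 in WT. Both 30 min libraries lay above both 0 min libraries for all 10 genes in each genotype, as they did for 25.2% of all genes in dKO and 25.1% in WT.

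*Srf* had 281 and 340.4 CPM in dKO iDFs at 30 min, against 83.8 and 81.0 CPM in dKO iDFs at 0 min. In WT iDFs it had 231 and 276 CPM at 30 min, against 61.3 and 68.8 CPM at 0 min. The fold change was 3.77 in dKO and 3.90 in WT iDFs, with a log2 value of 1.91 ± 0.13 in dKO (SE, n = 2 each, adjusted p = 0.00056) and 1.96 ± 0.13 in WT (adjusted p = 0.00076, edgeR). *Srf* is a known target of its own product, and its promoter carried the 2 boxes shown above.

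Among the actins, *Acta2* (smooth muscle α-actin, the usual marker of myofibroblasts) had 2849.7 and 2631 CPM in dKO iDFs at 30 min, against 1757 and 1282 CPM at 0 min. WT iDFs had 1331 and 1380.2 CPM of *Acta2* at 30 min, against 723 and 609 CPM at 0 min. The 30 min and 0 min libraries did not overlap in either genotype, and of the dKO libraries at 0 min 1 lay above and 1 below both WT libraries at 30 min. The log2 fold change was 0.85 ± 0.17 in dKO (adjusted p = 0.041) and 1.03 ± 0.17 in WT (adjusted p = 0.038, edgeR). *Actg2* (smooth muscle γ-actin) had 60.5 and 53.4 CPM in dKO iDFs at 30 min, against 38.0 and 29.3 CPM at 0 min, a log2 fold change of 0.76 ± 0.13 (adjusted p = 0.013). In WT iDFs *Actg2* had 66.7 and 71.0 CPM at 30 min, against 39.8 and 36.2 CPM at 0 min, a log2 fold change of 0.86 ± 0.13 (adjusted p = 0.012). The 2 times did not overlap in either genotype, and the dKO libraries were not above the WT libraries for this actin.

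*Acta1* (skeletal muscle α-actin) was nearly silent in iDFs and rests on few reads. It had 0.861 and 0.677 CPM in dKO iDFs at 30 min, against 0.287 and 0.072 CPM at 0 min, or 38 against 11 counts in all. In WT iDFs it had 0.769 and 0.859 CPM at 30 min, against 0.0373 and 0.0422 CPM at 0 min, or 38 against 2 counts. The ratio of the pooled CPM was 3.84 in dKO (exact 95% Clopper-Pearson interval 1.92 to 8.33) and 19.5 in WT (5.04 to 167), intervals that cover counting error only. Both were called in edgeR (adjusted p = 0.041 in dKO and 0.0097 in WT), and in dKO the call was lost with DESeq2 (adjusted p = 0.26).

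The calponin-family genes responded in both genotypes. *Tagln* (transgelin, an actin-bundling protein of smooth muscle) had 745 and 752 CPM in dKO iDFs at 30 min, against 371 and 279 CPM at 0 min. In WT iDFs it had 409.9 and 454 CPM at 30 min, against 176 and 148 CPM at 0 min. *Cnn1* (calponin 1, which binds actin and dampens myosin activity) had 193 and 195 CPM in dKO iDFs at 30 min, against 86.6 and 62.4 CPM at 0 min. WT iDFs had 93.6 and 97.0 CPM of *Cnn1* at 30 min, against 41.8 and 35.0 CPM at 0 min. For both genes the 2 groups of a genotype were well apart, and the stimulated WT libraries stayed below the stimulated dKO libraries. On the log2 scale the change of *Tagln* was 1.2 ± 0.16 in dKO (adjusted p = 0.011) and 1.41 ± 0.16 in WT (adjusted p = 0.0099), and that of *Cnn1* was 1.38 ± 0.16 in dKO (adjusted p = 0.0066) and 1.31 ± 0.17 in WT (adjusted p = 0.013, edgeR).

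*Tpm1* (tropomyosin 1, which wraps along actin filaments) gave the smallest p-values of the 10 genes. It had 1889 and 1852 CPM in dKO iDFs at 30 min, against 912 and 798 CPM at 0 min, a log2 fold change of 1.13 ± 0.06 (adjusted p = 7.8e-06). In WT iDFs *Tpm1* had 1249 and 1278 CPM at 30 min, against 519.9 and 496 CPM at 0 min, a log2 fold change of 1.31 ± 0.06 (adjusted p = 3.8e-06, edgeR). The libraries of a group differed little from each other for this gene.

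**Figure D1:**
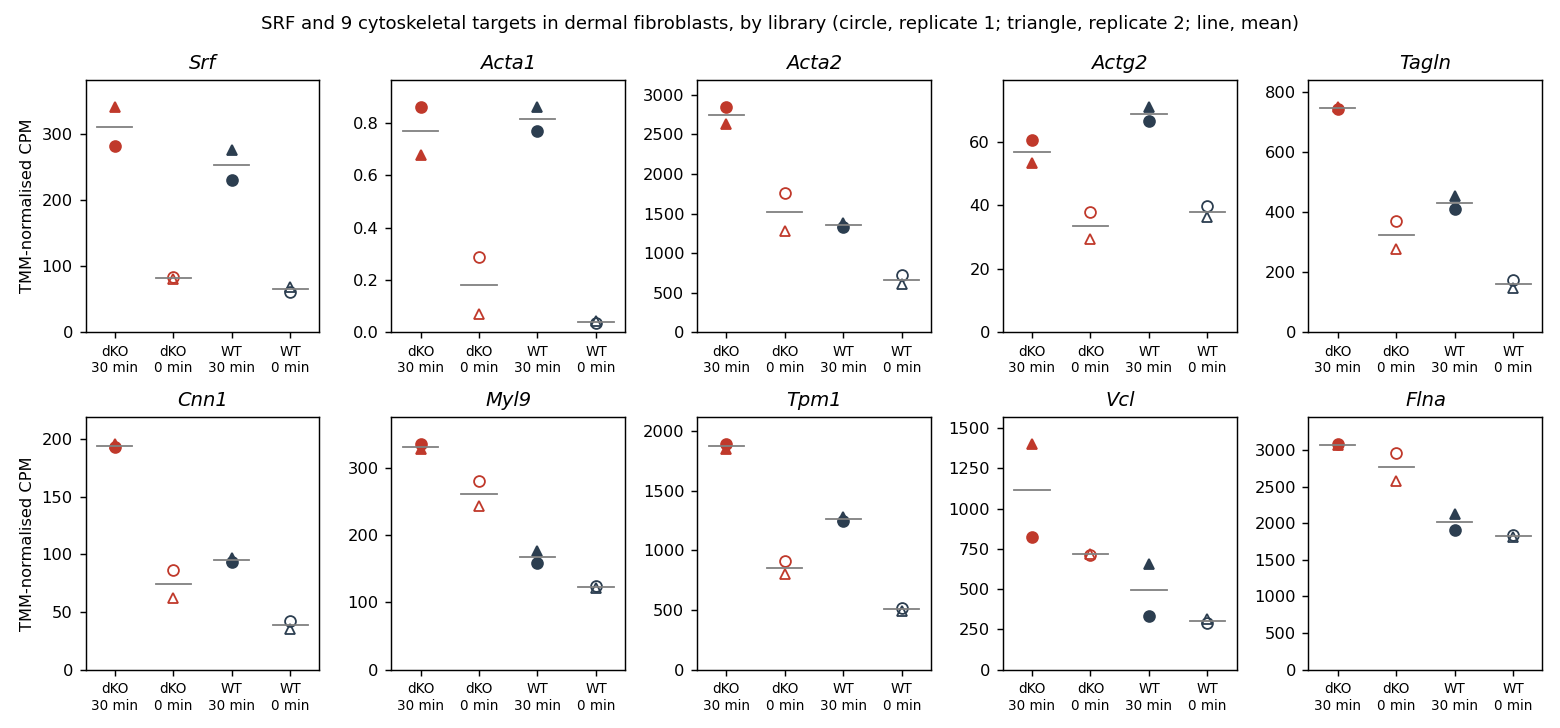
TMM-normalised CPM of each of the 10 genes in the 8 iDF libraries, 1 panel per gene with its own linear axis from 0; filled symbols are 30 min of serum, open symbols 0 min, and the grey line is the mean of the 2 libraries. *Srf* lies between 231 and 340.4 CPM at 30 min and between 61.3 and 83.8 CPM at 0 min, and for *Myl9* and *Flna* every dKO library lies above every WT library.

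None of the motor and adhesion genes was called. *Myl9* (a regulatory light chain of non-muscle and smooth muscle myosin) had 335 and 328 CPM in dKO iDFs at 30 min, against 281 and 243 CPM at 0 min, and 159 and 176 CPM in WT iDFs at 30 min, against 125 and 121 CPM at 0 min. The log2 fold change was 0.34 ± 0.07 in dKO (adjusted p = 0.023) and 0.45 ± 0.07 in WT (adjusted p = 0.011, edgeR), past the test but below the fold threshold. *Vcl* (vinculin, which ties actin to focal adhesions) had 825 and 1399.5 CPM in dKO iDFs at 30 min, against 712 and 719 CPM at 0 min, and 336 and 658 CPM in WT iDFs at 30 min, against 292 and 315 CPM at 0 min. In both genotypes the second 30 min library was far above the first, and *Vcl* did not pass the test (adjusted p = 0.46 in each). *Flna* (filamin A, an actin crosslinker) had 3078 and 3069 CPM in dKO iDFs at 30 min, against 2952 and 2573 CPM at 0 min, and 1901 and 2124 CPM in WT iDFs at 30 min, against 1837 and 1807 CPM at 0 min. Differences of 0.15 in dKO and 0.14 in WT on the log2 scale did not pass the test (adjusted p = 0.24 and 0.32, edgeR).

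**Figure D2:**
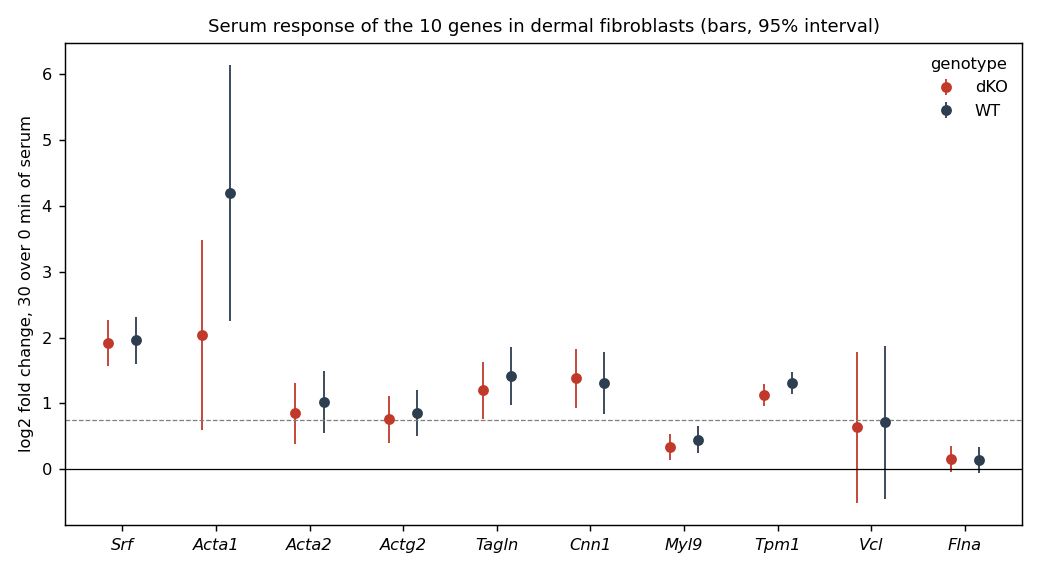
Log2 fold change of the 10 genes after 30 min of serum over 0 min in dKO (red) and WT (dark) iDFs; points are edgeR estimates from 2 libraries per group, bars 95% intervals, and the dashed line is the fold threshold of 0.75. *Srf* stands at 1.91 in dKO and 1.96 in WT, and the intervals of the 2 genotypes overlap for every gene.

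The size of the serum response did not pass a test of difference between the genotypes for any of the 10 genes. In the interaction term (the dKO response minus the WT response), 0 of 10 genes were called and 0 of 10 had an unadjusted p under 0.05, DESeq2 also called 0, and 0.0133% of all genes were called. The interval of the difference was -0.54 to 0.44 for *Srf* (estimate -0.05), -0.42 to 0.05 for *Tpm1* (estimate -0.19) and -0.82 to 0.40 for *Tagln* (estimate -0.21), all on the log2 scale. Those of *Acta1* (-4.84 to 0.52) and *Vcl* (-1.70 to 1.55) were far wider, so that only large differences could have been seen at this depth and replicate number. Calls of single genes varied with the libraries used: leaving out 1 library of the fit left 3 called genes in dKO iDFs without 30 min replicate 1 or 2, and 4 without 0 min replicate 2, and in WT iDFs it left 3 without 0 min replicate 1 and 2 without 0 min replicate 2 or 30 min replicate 2. *Srf* and *Tpm1* kept their calls under all 16 alternatives in both genotypes.

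SRF partners and the immediate-early targets set the response of the 10 genes in context. Of 6 cofactor genes, 0 were called higher at 30 min in either genotype by edgeR or DESeq2 (4 in each genotype had an unadjusted p under 0.05 in either direction), and *Mrtfa* (MRTF-A) was called lower in WT iDFs. Of all 15047 genes, 3576 in dKO and 2914 in WT iDFs had an unadjusted p under 0.05. *Mrtfa* had 3.60 and 3.09 CPM in dKO iDFs at 30 min, against 6.12 and 6.15 CPM at 0 min (log2 fold change -0.87 ± 0.24, adjusted p = 0.053). In WT iDFs it had 0.939 and 2.02 CPM at 30 min, against 5.97 and 5.83 CPM at 0 min (log2 fold change -1.99 ± 0.27, adjusted p = 0.0036). At 30 min *Mrtfa* was called higher in dKO than in WT iDFs (log2 1.18, adjusted p = 0.012), while the interaction for it had an adjusted p of 1.0 (unadjusted p = 0.013). *Mrtfb* differed between dKO and WT by -0.34 at 0 min and -0.32 at 30 min on the log2 scale, and *Elk3* by 0.34 and 0.36, all 4 past the test but below the fold threshold.

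Immediate-early targets moved far more than the cytoskeletal genes. Of 11 such genes, 11 were called higher at 30 min in dKO iDFs (median log2 fold change 4.73) and 9 in WT iDFs (median 4.70). *Egr3*, a zinc-finger transcription factor, had 703 and 778 CPM in dKO iDFs at 30 min, against 7.42 and 7.67 CPM at 0 min, and 518 and 541 CPM in WT iDFs at 30 min, against 6.57 and 7.01 CPM at 0 min. *Fosb* (an AP-1 subunit) reached log2 fold changes of 7.90 in dKO and 8.0 in WT. *Egr1* and *Ier2* were the 2 that were not called in WT, at 3.09 for *Egr1* (adjusted p = 0.086) and 3.03 for *Ier2* (adjusted p = 0.091) on the log2 scale, and DESeq2 called all 11 in WT. *Fos* had 771 and 332 CPM in dKO iDFs at 30 min, against 9.30 and 4.82 CPM at 0 min, and 542 and 220.3 CPM in WT iDFs at 30 min, against 8.17 and 5.32 CPM at 0 min, with replicate 1 above replicate 2 in each of the 4 groups. *Ccn2* (connective tissue growth factor) was the only one of the 11 that edgeR called between the genotypes, higher in dKO by 1.25 at 0 min (adjusted p = 0.049) and by 1.28 at 30 min (adjusted p = 0.034). DESeq2 called 2 of the 11 higher in dKO at each time. Of all 15047 genes it called 512 higher at 0 min and 501 at 30 min.

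Of 24 further cytoskeletal genes known as SRF-MRTF targets, 7 were called higher at 30 min in dKO iDFs and 8 in WT iDFs, none was called lower, and the median log2 fold changes were 0.43 in dKO and 0.41 in WT. The called genes with the smallest p-values were *Actb* (β-actin, log2 0.88 in dKO and 0.85 in WT), *Actg1* (cytoplasmic γ-actin, 1.04 in dKO and 1.18 in WT), *Csrp1* (a LIM protein, 1.10 in dKO and 1.05 in WT) and *Fhl1* (another LIM protein, 1.02 in dKO and 0.90 in WT).

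Salmon also assigns reads to transcripts annotated as retaining an intron, and 5 of the 10 genes have such transcripts. Their share of the gene's counts was examined after the values were seen. For *Tagln* it was 16.6% and 12.7% in dKO iDFs at 30 min, against 2.60% and 2.26% at 0 min, and 20.1% and 14.6% in WT iDFs at 30 min, against 1.99% and 1.93% at 0 min. *Tpm1* had 1.90% and 1.44% in dKO iDFs at 30 min, against 0.40% and 0.28% at 0 min, and 2.67% and 2.13% in WT iDFs at 30 min, against 0.46% and 0.43% at 0 min. *Flna* had 2.54% and 2.57% in dKO iDFs at 30 min, against 1.25% and 1.33% at 0 min, although its summed level did not pass the test. The share was higher in both 30 min libraries than in both 0 min libraries for 4 of the 5 genes in dKO and 5 of 5 in WT. The same held for 10.3% of all 7563 tested genes with such a transcript in dKO and 13.4% in WT, and for 50.5% of the 109 genes called higher at 30 min in dKO and 46.8% of the 79 in WT. *Srf* was the exception in dKO, with 4.87% and 2.65% at 30 min, against 2.81% and 0.74% at 0 min.

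The makeup of *Tpm1* transcripts also differed by time. The transcript Tpm1-211 gave 24.2% of the gene's TPM (a level corrected for transcript length and library size) in dKO iDFs at 30 min, against 33.1% at 0 min, and 24.8% in WT iDFs at 30 min, against 38.5% at 0 min. Tpm1-201 made up 9.1% in dKO iDFs at 30 min, against 2.5% at 0 min, and 10.6% in WT iDFs at 30 min, against 3.6% at 0 min. Tpm1-212 was near 0 in every iDF group (at most 0.9% on average) and gave 53.7% in dKO and 38.9% in WT CD8 T cells. These shares are Salmon estimates among overlapping transcripts and were given no test.

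MacroH2A loss went with higher levels of contractile genes in iDFs, before and after serum. At 0 min 5 of the 10 genes were called higher in dKO than in WT iDFs (*Acta2*, *Tagln*, *Cnn1*, *Myl9* and *Tpm1*), where 3.93% of all genes were called higher, and at 30 min 4 were (*Acta2*, *Tagln*, *Cnn1* and *Myl9*), where 3.88% were. None of the 10 was called lower at either time. The median log2 fold change was 0.98 at 0 min and 0.70 at 30 min, and over all genes it was -0.00 and -0.01. Both dKO libraries lay above both WT libraries for 9 of 10 genes at 0 min and 8 of 10 at 30 min, against 34.5% and 31.6% of all genes. The comparisons at the 2 times are made on different libraries, but the iDFs of a genotype may be the same lines.

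*Myl9* had the difference with the smallest adjusted p among the 5 at 0 min, at 281 and 243 CPM in dKO against 125 and 121 CPM in WT iDFs (log2 fold change 1.09 ± 0.07, n = 2 each, adjusted p = 1.8e-05). At 30 min it stood at 335 and 328 CPM in dKO against 159 and 176 CPM in WT iDFs (0.98 ± 0.07, adjusted p = 3.2e-05, edgeR). The fold between the genotypes was 2.13 at 0 min and 1.98 at 30 min. *Acta2* was higher in dKO by 1.19 ± 0.17 at 0 min (adjusted p = 0.0053) and 1.02 ± 0.17 at 30 min (adjusted p = 0.0090). *Tagln* was higher by 1.01 ± 0.16 at 0 min (adjusted p = 0.0065) and 0.79 ± 0.15 at 30 min (adjusted p = 0.014), and *Cnn1* by 0.95 ± 0.17 (adjusted p = 0.0088) and 1.03 ± 0.16 (adjusted p = 0.0055).

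*Tpm1* crossed the fold threshold narrowly at 0 min, with 0.752 ± 0.06 (adjusted p = 2.9e-05), and fell short of it at 30 min, with 0.57 ± 0.06 (adjusted p = 0.00014). *Flna* passed the test at both times but not the fold threshold, with 0.60 ± 0.07 at 0 min (adjusted p = 0.00044) and 0.61 ± 0.07 at 30 min (adjusted p = 0.00041). *Vcl* had 712 and 719 CPM in dKO against 292 and 315 CPM in WT iDFs at 0 min, a log2 difference of 1.24 ± 0.42 with no overlap, but its spread at 30 min entered the shared fit, and the adjusted p was 0.096 at 0 min and 0.11 at 30 min. DESeq2 gave *Vcl* adjusted p-values of 0.020 and 0.030, and a fit of the 0 min libraries alone gave 1.6e-06. *Srf* itself differed by 0.34 ± 0.13 at 0 min (adjusted p = 0.092) and 0.29 ± 0.12 at 30 min (adjusted p = 0.12, edgeR), which did not pass the test.

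*Actg2* went the other way without passing the test, with a log2 difference of -0.17 (95% interval -0.53 to 0.18) at 0 min and -0.27 (-0.62 to 0.07) at 30 min. At 30 min both dKO libraries (60.5 and 53.4 CPM) lay below both WT libraries (66.7 and 71.0 CPM), as in 33.6% of all genes. *Acta1* had 11 counts in dKO and 2 in WT iDFs at 0 min, a ratio of 4.52 (exact 95% interval 0.987 to 42.0). At 0 min the number of called genes was 3 without dKO 0 min replicate 1, and in a fit of the 0 min libraries alone it was 2. At 30 min 2 were called without WT replicate 1, WT replicate 2 or dKO replicate 1 of that time. *Myl9* was called at both times, and *Cnn1* at 30 min, under all 16 alternatives.

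**Figure D3:**
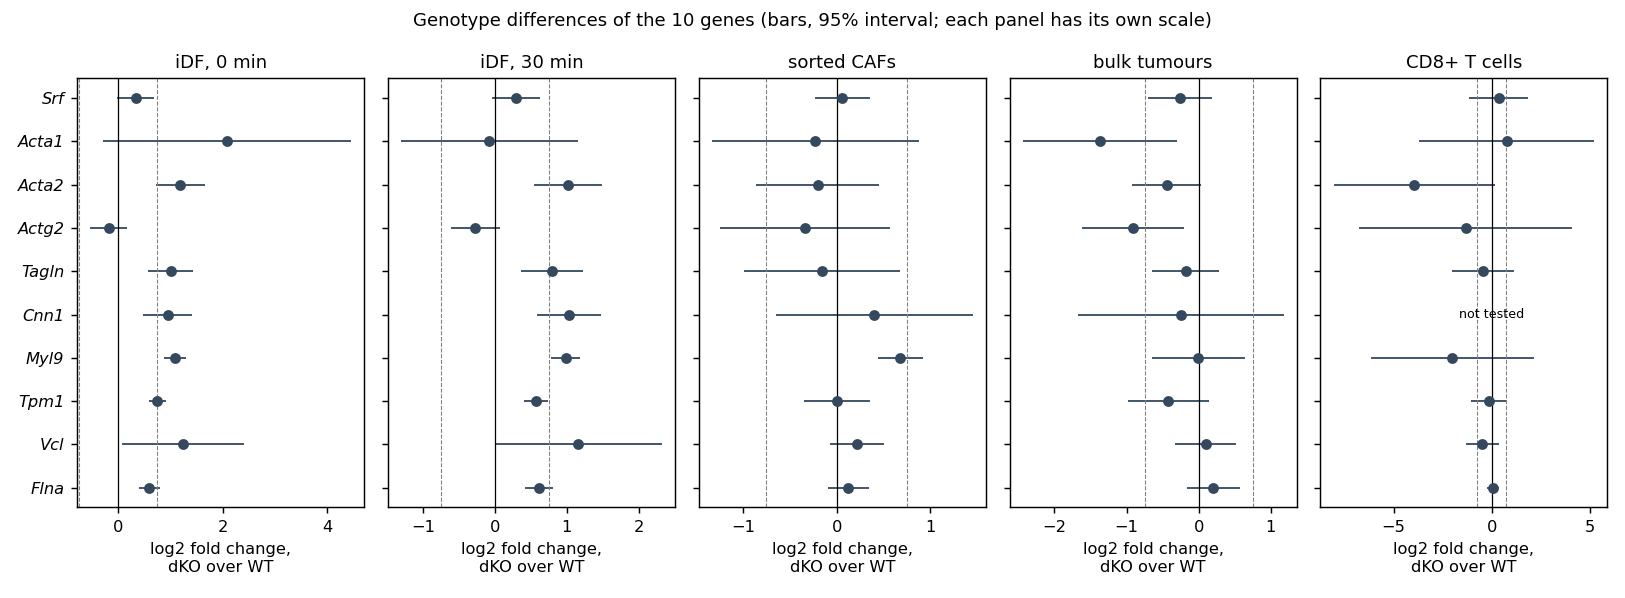
Log2 fold change of dKO over WT for the 10 genes in iDFs at 0 and 30 min, sorted CAFs, bulk tumours and CD8 T cells; points are edgeR estimates, bars 95% intervals, and dashed lines mark 0.75 in each direction. In iDFs *Acta2*, *Tagln*, *Cnn1* and *Myl9* lie between 0.79 and 1.19, in CAFs *Myl9* alone has an interval above 0 (0.44 to 0.92), and in CD8 T cells the axis is far wider.

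Of the 24 other SRF-MRTF targets, 21 had a log2 fold change above 0 in dKO over WT iDFs at each time (median 0.40 at 0 min and 0.41 at 30 min), as did 49.7% of all genes at 0 min and 48.9% at 30 min. Of the 24, 1 was called higher and 1 lower at each time, where 3.93% of all genes were called higher and 5.11% lower at 0 min, and 3.88% higher and 5.08% lower at 30 min. *Fhl1* was the one called higher (0.95 at 0 min and 1.07 at 30 min) and *Mylk* (myosin light chain kinase) the one called lower (-1.68 at 0 min and -1.24 at 30 min). *Mylk* had 5.16 and 6.12 CPM in dKO against 17.95 and 18.2 CPM in WT iDFs at 0 min, so the kinase of the myosin light chains and the light chain gene *Myl9* differed in opposite directions. Among the mural and smooth muscle markers, *Lmod1* (leiomodin 1, an actin nucleator of smooth muscle) was called higher in dKO iDFs by 1.54 at 0 min and 1.26 at 30 min, and at 30 min over 0 min by 1.66 in dKO and 1.94 in WT. It was the only marker called between the genotypes of the 5 tested. Of these 5, 2 had a log2 fold change above 0 at 0 min (median -0.03) and 3 at 30 min (median 0.01). The summed mural and smooth muscle markers were 424 to 447 CPM in dKO at 30 min, 314 to 363 CPM in dKO at 0 min, 340 to 357 CPM in WT at 30 min and 294 to 327 CPM in WT at 0 min, and *Higd1b* was at 0 counts in all 8 libraries. Of these sums, *Lmod1* alone gave 96.3 to 141 CPM in dKO at 30 min and 36.3 to 38.7 CPM in dKO at 0 min. In WT it gave 38.4 to 60.8 CPM at 30 min and 12.1 to 13.7 CPM at 0 min. Of the 6 fibroblast markers, 2 (*Dcn* and *Lum*) were called lower in dKO iDFs at both times (*Dcn* by -1.73 at 0 min and -1.71 at 30 min). None was called higher, and 1 of the 6 had a log2 fold change above 0 at 0 min (median -0.44) and 2 at 30 min (median -0.36). At 0 min *Col1a1* had 11181 to 11546 CPM in dKO against 11629 to 12230 CPM in WT iDFs. *Col1a2* had 10862 to 11374 CPM in dKO against 10780 to 11358 CPM in WT iDFs. The part of either set of markers in the differences of the 10 genes was not tested.

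In sorted CAFs none of the 10 genes was called, where 5.48% of 15786 genes were called in either direction. DESeq2 also called 0 of the 10, and 1 had an unadjusted p under 0.05. *Myl9* came closest, with 42.6, 48.0, 58.4 and 54.5 CPM in dKO CAFs against 34.5, 28.7, 31.9 and 31.4 CPM in WT CAFs. Every dKO library was above every WT library, as in 7.09% of all genes, and the log2 fold change was 0.68 ± 0.09 (95% interval 0.44 to 0.92, adjusted p = 0.0053, edgeR), past the test but below the fold threshold. Of all genes, 3.8% had an adjusted p under 0.05 and were higher in dKO CAFs. Leaving out 1 library moved the log2 value of *Myl9* between 0.63 and 0.76, and *Myl9* was called without WT replicate 1.

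*Acta2* did not differ beyond its spread in CAFs, at 36.8, 88.6, 82.2 and 76.0 CPM in dKO against 81.6, 81.4, 94.4 and 67.3 CPM in WT (log2 fold change -0.20, 95% interval -0.86 to 0.46). *Tagln* had 26.2, 81.1, 48.5 and 59.0 CPM in dKO CAFs against 61.6, 64.7, 70.5 and 43.4 CPM in WT CAFs (-0.16, -0.99 to 0.68). dKO replicate 1 was the lowest library for both genes. *Srf* had 66.3, 79.9, 98.5 and 82.7 CPM in dKO CAFs against 85.5, 77.0, 72.3 and 78.0 CPM in WT CAFs (0.06, -0.24 to 0.35). *Tpm1*, *Vcl* and *Flna* had log2 differences of -0.00, 0.22 and 0.12, with adjusted p-values from 0.26 to 0.998, and *Cnn1*, *Actg2* and *Acta1* stood below 3 CPM in every CAF library.

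Of the 24 other SRF-MRTF targets, 1 was called in CAFs, where 636 of all 15786 genes were called lower. It was *Tes* (testin, a focal adhesion protein), lower in dKO by -1.16 (adjusted p = 0.032), with 4.73, 17.8 and 30.1 CPM (lowest, median and highest) in dKO against 22.3, 33.3 and 52.7 CPM in WT. Of the 11 immediate-early genes, 0 were called in edgeR or DESeq2, 5 had an unadjusted p under 0.05 and 9 had a log2 fold change above 0. For 3 of the 11 (*Fosb*, *Junb* and *Egr2*) every dKO library was above every WT library, as in 7.09% of all genes. Of all 15786 genes in CAFs, 4098 had an unadjusted p under 0.05 and 50.4% had a log2 fold change above 0. Of the 5 cofactor genes tested in CAFs, 0 were called by either tool and 2 had an unadjusted p under 0.05, one of them *Elk3* (-0.32, adjusted p = 0.029). Melanocyte markers were lower in dKO CAFs: 6 of 6 had a log2 fold change below 0, edgeR called *Tyrp1* (-1.45, adjusted p = 0.045), DESeq2 called 6 of 6 lower (as it did 5.45% of all genes), and their sum was 85.7 to 391 CPM (median 238) in dKO against 423 to 628 CPM (median 468) in WT. Of the 9 mural and smooth muscle markers tested, 6 had a log2 fold change above 0 (median 0.25), edgeR called 0 and DESeq2 called *Notch3*, a receptor of mural cells, which had 171, 215 and 306 CPM (lowest, median and highest) in dKO against 67.9, 147 and 153 CPM in WT CAFs. Of all 15786 genes, DESeq2 called 346 higher in dKO CAFs. The mural sum was 669 to 1089 CPM (median 861) in dKO against 562 to 931 CPM (median 787) in WT CAFs. All 6 fibroblast markers had a log2 fold change above 0 (median 0.25) and 0 were called by edgeR or DESeq2. For 3 of these 6 every dKO library was above every WT library, as in 7.09% of all genes. The part of these 3 sets of markers in the *Myl9* and *Tes* differences was not tested.

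In bulk tumours none of the 10 genes was called, where 0.0442% of 18097 genes were, and DESeq2 called 0 of the 10 as well. Only *Acta1* and *Actg2* had an unadjusted p under 0.05. The 10 genes had a median log2 fold change of -0.25, with 2 of 10 above 0 (*Vcl* 0.10 and *Flna* 0.20), while the median over all genes was 0.02. In bulk tissue, fewer cells of a type and less RNA per cell cannot be told apart.

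*Acta1* had the largest difference of the 10 genes in tumours. It ran at 201, 476, 429.6, 166, 173 and 496 CPM in dKO tumours, against 375, 199.6, 1653, 405, 715 and 941 CPM in WT tumours. The groups overlapped, and the log2 fold change of -1.37 ± 0.45 (n = 6 each, unadjusted p = 0.013) did not pass correction (adjusted p = 0.53 in edgeR and 0.0999 in DESeq2). Within the 3 library batches the log2 ratio of the means was -1.06, -0.93 and -1.48, and leaving out single tumours moved the fitted value between -1.66 and -0.94. In batches 2 and 3 all 4 dKO tumours were male, and in batch 3 both WT tumours were female, so that sex and genotype cannot be told apart within batch 3.

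Skeletal muscle markers moved with *Acta1*. All 12 (among them *Ckm*, the muscle creatine kinase, and fast myosin heavy chain genes) had a log2 fold change below 0 in dKO tumours, with a median of -1.38, edgeR called 0 of 12 and DESeq2 2, and 10 had an unadjusted p under 0.05. Of all 18097 genes, DESeq2 called 113 lower, and 1360 had an unadjusted p under 0.05. The 12 markers summed to 532 to 1663 CPM (median 1111) in dKO against 979 to 5016 CPM (median 1767) in WT tumours, and the log2 ratio of the mean sums was -0.87, -0.86 and -1.68 in the 3 batches. The 5 genes whose level followed that of *Acta1* most closely over the 12 tumours were *Ckm*, *Casq1*, *Atp2a1*, *Sypl2* and *Pgam2* (Pearson r of log2 CPM 0.98 to 0.99, a description over tumours that share library batches), of which *Ckm* and *Casq1* are on the marker list. The part of muscle tissue in the *Acta1* value was not tested.

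**Figure D4:**
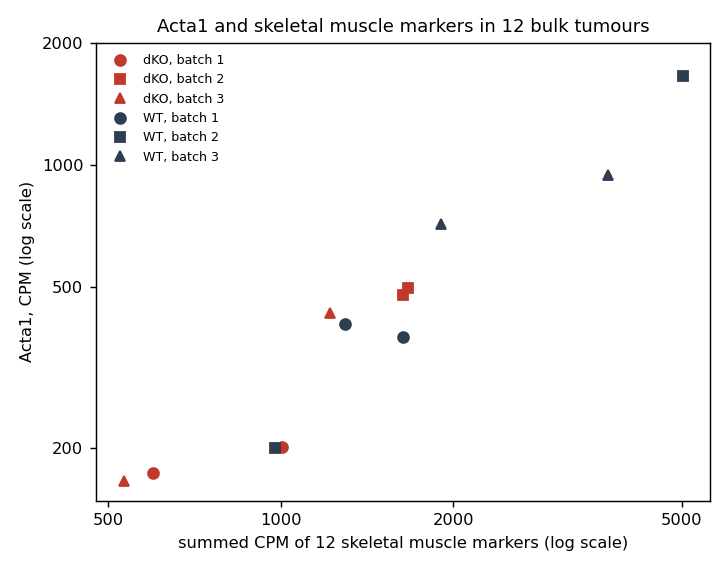
*Acta1* CPM (log axis) against the summed CPM of 12 skeletal muscle markers (log axis) in 6 dKO (red) and 6 WT (dark) bulk tumours, with 1 symbol per library batch. The highest tumour, WT replicate 3, has 1653 CPM of *Acta1* and the lowest, dKO replicate 4, has 166 CPM, and the points lie close to 1 line.

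The smooth muscle actins were lower on average in dKO tumours without passing the test. *Acta2* had 60.7, 59.0, 46.5, 75.1, 75.5 and 73.7 CPM in dKO against 112, 74.4, 105, 71.3, 84.5 and 121 CPM in WT tumours (log2 fold change -0.44, 95% interval -0.92 to 0.04, adjusted p = 0.67), and its log2 ratio was -0.43, -0.44 and -0.75 in the 3 batches. *Actg2* had 2.53, 2.15, 2.44, 3.65, 2.36 and 2.10 CPM in dKO against 5.28, 1.72, 3.80, 5.22, 3.28 and 7.04 CPM in WT tumours (-0.91 ± 0.30, unadjusted p = 0.013, adjusted p = 0.53), with -1.10, -0.38 and -0.76 in the batches. The WT range of *Actg2* enclosed the dKO range. The 10 mural and smooth muscle markers summed to 921 to 1642 CPM (median 1454) in dKO and 938 to 1548 CPM (median 1389) in WT tumours, and 5 of the 10 had a log2 fold change above 0. Most of this sum came from *Mcam* (median 674 CPM in dKO and 545 CPM in WT) and *Cspg4* (413 and 371 CPM). The medians of *Myh11* (22.9 CPM in dKO and 26.1 CPM in WT), *Des* (63.3 and 93.3 CPM) and *Lmod1* (2.37 and 3.79 CPM) were lower in dKO. The part of these markers in the actin values was not tested. *Tpm1* had a log2 difference of -0.42 (adjusted p = 0.72), close to -0.4 in each batch (-0.37, -0.39 and -0.38), and *Srf*, *Cnn1*, *Tagln* and *Myl9* had -0.26, -0.25, -0.18 and -0.01. Of the related lists, edgeR and DESeq2 each called 0 of 6 cofactor, 0 of 11 immediate-early and 0 of 24 other SRF-MRTF genes in tumours, of which 0, 2 and 3 had an unadjusted p under 0.05. A log2 fold change above 0 was seen for 4 of the 6, 10 of the 11 and 10 of the 24, and for 53.2% of all genes.

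CD8 T cells expressed few of the 10 genes, and none was called among the 9 tested (0.495% of 14944 genes were). DESeq2 called 0 as well, and *Acta2* alone had an unadjusted p under 0.05. *Flna* was the most abundant, with 785, 823, 646 and 540.2 CPM in dKO against 657, 612, 715 and 629.8 CPM in WT T cells (log2 fold change 0.08, 95% interval -0.24 to 0.40). *Tpm1* had 34.2, 35.2, 48.8 and 35.1 CPM in dKO against 82.1, 31.9, 18.7 and 42.7 CPM in WT T cells (-0.13, -1.05 to 0.79). *Vcl* had 23.6, 28.8, 14.2 and 11.3 CPM in dKO against 31.6, 19.6, 16.4 and 33.7 CPM in WT T cells (-0.47, -1.33 to 0.40). *Srf* was low, at 2.02, 1.96, 1.55 and 1.39 CPM in dKO against 0.923, 2.50, 1.06 and 1.01 CPM in WT T cells (0.36, -1.15 to 1.87).

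*Acta2* had 0.0439, 0.0711, 1.11 and 0.405 CPM in dKO against 7.23, 0, 2.80 and 6.08 CPM in WT T cells, a log2 difference of -3.95 ± 1.60 (unadjusted p = 0.037, adjusted p = 0.44). The groups overlapped because of WT replicate 2, and *Acta2* was called when no low-count filter was applied (adjusted p = 0.0025, edgeR). The WT library without *Acta2* reads was also the one with the least fibroblast RNA (a marker sum of 2.18 CPM), and the other fibroblast sums were 88.8, 772, 2825 and 1827 CPM in the 4 dKO libraries and 1457, 467 and 831 CPM in WT replicates 1, 3 and 4. Melanocyte markers summed to 5.15 to 10.3 CPM in dKO and 7.69 to 243 CPM in WT T cells, with the 243 CPM in WT replicate 1, where *Acta2* was highest. The 3 melanocyte markers tested had log2 fold changes below 0 (median -3.03) and 0 were called by edgeR or DESeq2. Myeloid markers summed to 6.94 to 299.8 CPM in dKO and 3.74 to 272 CPM in WT T cells, with the highest values in dKO replicate 3 and WT replicate 4. Mural and smooth muscle markers summed to 4.87 to 18.8 CPM in dKO and 3.07 to 33.1 CPM in WT T cells, with *Rgs5* at 0 counts in all dKO and *Higd1b* in all WT libraries. The part of RNA from other cells in the *Acta2* value was not tested. *Cnn1* had 0 counts in all 4 dKO libraries, and 0, 0, 0.341 and 0.685 CPM in the WT libraries, so no fold change was drawn for it. Of the related lists, edgeR called 0 of 5 cofactor, 0 of 10 immediate-early and 0 of 23 other SRF-MRTF genes tested in T cells, of which 1, 2 and 2 had an unadjusted p under 0.05. Of all 14944 genes, 1531 had an unadjusted p under 0.05. DESeq2 called 4 genes of these 3 lists, all higher in dKO, where it called 1.89% of all genes higher. They were the cofactor *Elk1* (log2 fold change 1.04, adjusted p = 0.020), the immediate-early genes *Ier2* (2.41, adjusted p = 2e-07) and *Junb* (2.08, adjusted p = 0.037), and *Zyx* (zyxin, a focal adhesion protein, 1.01, adjusted p = 0.00034).

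Levels set side by side in TPM were highest in cultured fibroblasts for most of the contractile genes. Kits, input and cell sources differ between the experiments, so these are descriptions with no test. In starved (0 min) iDFs *Acta2* had 1637 and 2221 TPM in dKO and 810.3 and 957 TPM in WT libraries, above CAFs with a median of 106 TPM in dKO and 109 TPM in WT, and bulk tumours with medians of 59.3 TPM in dKO and 85.0 TPM in WT. CD8 T cells had medians of 0.14 TPM in dKO and 2.79 TPM in WT. The neighbours in this order did not overlap in WT, and in dKO the CAFs and bulk tumours overlapped. *Tagln*, *Cnn1*, *Myl9* and *Actg2* were likewise highest in starved iDFs of both genotypes, with no overlap with the next experiment. *Cnn1* had 104 and 157 TPM in dKO and 53.6 and 70.2 TPM in WT iDFs, and its median in every other group was at most 2.41 TPM. *Tpm1* led in iDFs too, but WT iDFs (550.4 and 574 TPM) overlapped with WT bulk tumours.

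*Srf* followed another order. CAFs (median 69.1 TPM in dKO and 66.2 TPM in WT) and starved iDFs (66.8 TPM in dKO and 62.8 TPM in WT) overlapped, bulk tumours followed with 28.7 TPM in dKO and 27.8 TPM in WT, and CD8 T cells had 1.40 TPM in dKO and 0.627 TPM in WT. In CPM over the 36 libraries, which is not corrected for transcript length, CAFs (81.2 to 119 CPM in dKO and 87.0 to 104 CPM in WT) lay above starved iDFs (76.9 to 79.1 CPM in dKO and 57.0 to 64.1 CPM in WT) without overlap. *Acta1* was highest in bulk tumours (median 355 TPM in dKO and 596 TPM in WT). Its median was lowest in starved iDFs (0.23 TPM in dKO and 0.11 TPM in WT, on few reads). In TPM these overlapped with CD8 T cells (median 0.45 TPM in dKO and 0.34 TPM in WT) in both genotypes. *Flna* was the most even in TPM, with medians between 371 and 644 TPM in iDFs, CAFs and tumours and of 199.6 TPM in dKO and 186 TPM in WT T cells. In CPM over the 36 libraries its dKO medians were 2615 in starved iDFs, 1404 in CAFs, 888 in tumours and 724 in T cells. The WT medians were 1696, 1281, 785 and 695 CPM. By that unit the *Flna* level of starved iDFs lay above that of CAFs, and that of CAFs above tumours, without overlap in either genotype. The order of the 4 experiments was the same in TPM and in CPM over the 36 libraries for 8 of 10 genes in each genotype.

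**Figure D5:**
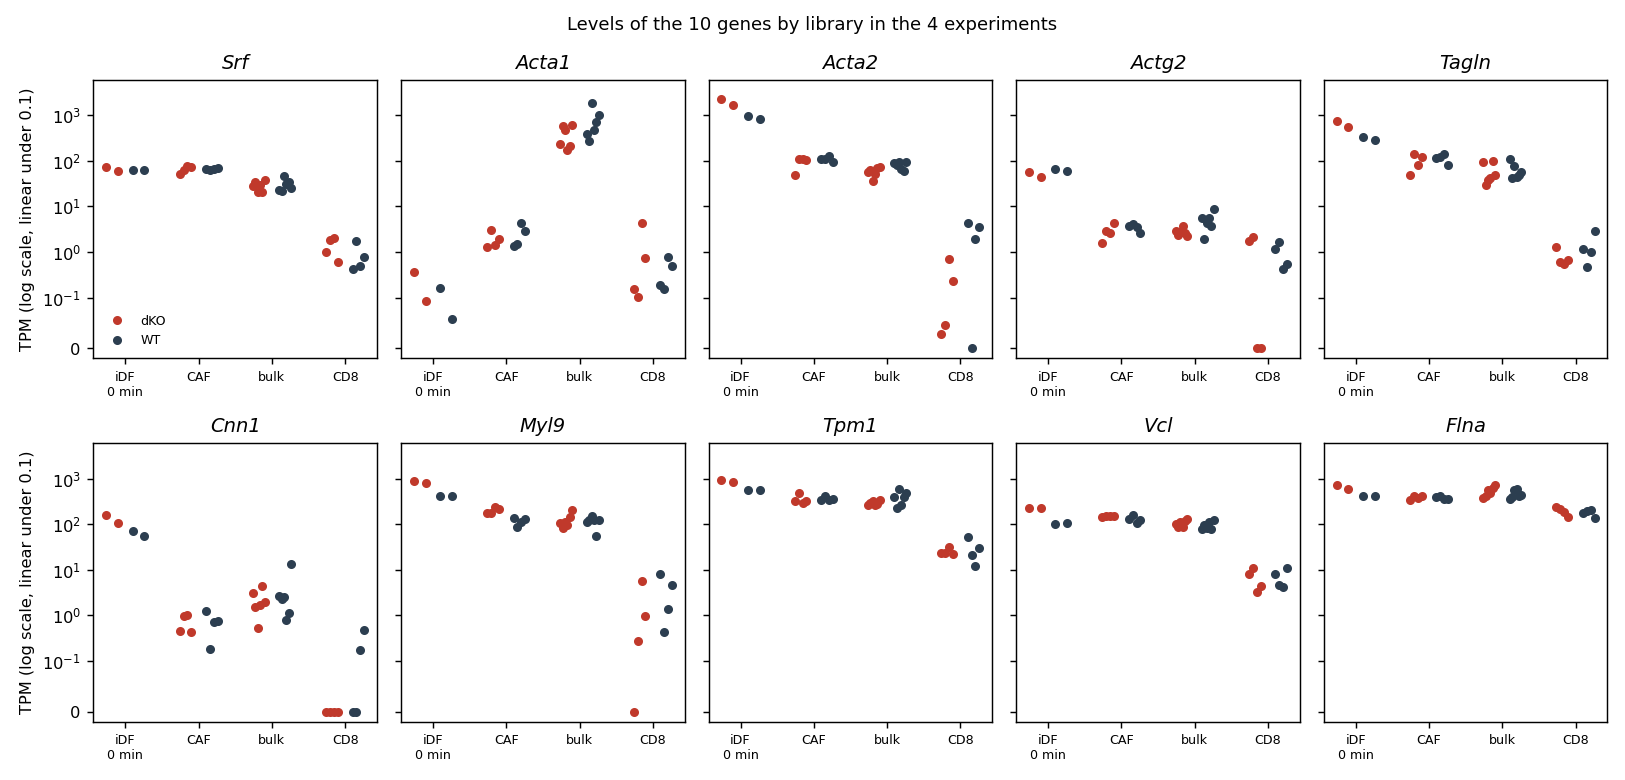
TPM of the 10 genes in each library of the 4 experiments (starved iDFs, CAFs, bulk tumours, CD8 T cells; log axis, linear under 0.1), dKO in red left of WT in dark. *Acta2*, *Tagln*, *Cnn1* and *Myl9* are highest in iDFs, *Acta1* in bulk tumours, and CD8 T cells are lowest for *Srf* in both genotypes.

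The genes whose level followed *Srf* most closely over the 8 iDF libraries, out of 15046 tested, were *Vmp1*, *Jund*, *Prkab2*, *Sde2* and *Filip1l* (Pearson r of log2 CPM above 0.995), and *Filip1l* is one of the 24 other SRF-MRTF targets. Of the 9 target genes, *Acta1* (0.96) and *Tpm1* (0.94) were most like *Srf* and *Flna* (0.39) least. Over all 36 libraries the closest were *Myo1c*, *Ptpn23*, *Syde2*, *Mex3d* and *Mex3b* (0.97 to 0.98 of 20762 genes). Over the 12 tumours the genes closest to *Acta2* were *Ada*, *Thop1*, *Gins1*, *Srd5a1* and *Nxn* (0.88 to 0.91 of 18096 genes). These values describe libraries that share kits and batches, and carry no test.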

How the data were processed

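RNA-seq of 12 bulk tumours, 8 CD8 T cell, 8 CAF and 8 iDF samples was analysed, from poly-A libraries (CD8 T cells with a low-input kit). The authors quantified reads per transcript with Salmon 1.2.1 and deposited estimated counts, TPM and effective lengths (bases, per transcript, a value of another kind than a level) for each library. The effective lengths were the same in all 36 tables.

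Gene sums of the deposited estimated counts were made with Gencode mouse release 21 (the authors name a later release; GRCm38; 139791 of 140992 transcripts matched, leaving 0.25 to 0.52% of counts without a gene) and were rounded to whole numbers. Each experiment was fitted on its own with edgeR 4.0.16 (R 4.3.3): TMM normalization, filterByExpr with a minimum count of 10 and total of 15, and the robust quasi-likelihood test, on batch, sex and genotype (bulk), sex and genotype (CD8, CAF) or the 4 groups in 1 model (iDF). Calls needed a Benjamini-Hochberg adjusted p under 0.05 and a log2 fold change above 0.75 or below -0.75. DESeq2 1.42.0 and the other alternatives are compared in the closing section. Levels between experiments used the deposited TPM summed per gene. CArG boxes were searched in RefSeq promoter windows with Python 3.11.15. On simulated counts, 58% (bulk), 28% (CD8), 78% (CAF) and 92% (iDF at 30 min) of genes changed by 1 on the log2 scale were called, and 92%, 68%, 96% and 98% of those changed by 2.

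The members and all gene lists were chosen with earlier results of these data known. The 10 members are named in each comparison. From each list, counts are given and the called genes with the smallest p-values are named, at most 4 per direction, with any cofactor or immediate-early gene. Genes of most similar level are the 5 with the highest Pearson r. Genes named for other reasons were chosen after their values were seen. One allele of the melanoma model is not reported here.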

Additional observations from a re-analysis of the deposited data

Results flagged for a closer look

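Each of the 10 genes was examined in the 6 groups of 4 to 6 libraries, on log2(CPM + 0.5), for a highest or lowest library far from the others (Dixon's test at 95%, 60 tests, of which chance flags about 1 in 20), and 4 stood out. *Srf* was 2.50 CPM in WT CD8 replicate 2, against 0.923 to 1.06 CPM in the other 3 WT libraries. *Tpm1* was 48.8 CPM in dKO CD8 replicate 3, against 34.2 to 35.2 CPM in the other 3 dKO libraries. *Actg2* was 3.65 CPM in dKO bulk tumour replicate 4, against 2.10 to 2.53 CPM in the other 5. *Cnn1* was 9.07 CPM in WT bulk tumour replicate 6, against 0.981 to 2.41 CPM in the other 5, and the batch of that tumour gave a log2 ratio of -2.29, against 0.43 and -0.16 in the other 2 batches.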

How the results depend on the processing

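Depth, replicate number and shared reads limit these values: iDF groups held 2 libraries, a left-out iDF library leaves a group of 1 that is assumed to vary like the others, and *Acta1* in iDFs and all members but *Flna*, *Tpm1* and *Vcl* in CD8 T cells rest on few reads.

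The number of called members was 0 in CD8 T cells and 1 (*Acta2*) without the low-count filter. In CAFs it was 0, and 1 (*Myl9*) with a length offset (log2 0.78) and without the fold threshold. In iDFs at 0 min it was 5, and 2 in a fit of only the groups compared. For serum in dKO iDFs it was 7, and 4 in a fit of only the groups compared. Calls made with 2 groups alone rest on fewer libraries. Adding the replicate number as a block to the iDF fits (a replicate block) left the counts at 7 for serum in dKO, 7 in WT, 5 between genotypes at 0 min, 4 at 30 min and 0 for the interaction. Deviations of same-numbered libraries correlated by 0.018 to 0.132 over 6 group pairs, so that the numbers were not taken to pair the iDF libraries. In the tumour experiments no paired analysis was possible because dKO and WT replicates are different animals.

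Leaving out 1 library at a time gave 0 to 1 called members in CAFs (1 without WT replicate 1), 3 to 6 in iDFs at 0 min, 2 to 4 at 30 min, 2 to 7 for serum in WT and 3 to 7 for serum in dKO, and 0 in bulk tumours, CD8 T cells and the interaction. A call of *Acta2* on serum was lost in 9 of 16 alternatives in dKO and 7 in WT, of *Acta1* in 10 and 4, and of *Tpm1* between genotypes at 0 min in 6. Those of *Srf* and *Tpm1* on serum and of *Myl9* between genotypes were lost in 0.

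Signs turned only for uncalled values. In bulk tumours *Myl9* became 0.040 with a length offset, 0.067 without sex and 0.0038 without batch. *Actg2* in CD8 T cells became 0.055 without sex, *Tpm1* in CAFs 0.0079 without the filter and 0.015 without sex, *Acta1* in iDFs at 30 min 0.15 with a length offset, and the interactions of *Cnn1* and *Flna* -0.11 and -0.15 with a length offset. Leaving out 1 library, the log2 range in bulk tumours was -0.72 to 0.10 for *Cnn1*, -0.058 to 0.30 for *Vcl*, -0.035 to 0.45 for *Flna*, -0.41 to 0.063 for *Tagln* and -0.38 to 0.14 for *Myl9*. In CD8 T cells it was -0.64 to 2.21 for *Acta1*, -0.38 to 0.25 for *Tpm1* and -3.73 to 0.33 for *Actg2*. In CAFs it was -0.034 to 0.15 for *Srf*, -0.68 to 0.11 for *Acta1*, -0.52 to 0.10 for *Tagln*, -0.16 to 0.084 for *Tpm1* and -0.45 to 0.030 for *Acta2*. For *Acta1* in iDFs at 30 min it was -0.26 to 0.079. For the interaction it was -0.14 to 0.33 for *Cnn1*, -0.19 to 0.088 for *Srf*, -0.51 to 0.49 for *Vcl*, -0.082 to 0.11 for *Flna*, -0.40 to 0.0077 for *Tagln*, -0.38 to 0.070 for *Acta2*, -0.27 to 0.10 for *Actg2* and -0.21 to 0.0013 for *Myl9*. The causes were not tested.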
